A study of Arabidopsis thaliana with 12 samples.

Results

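Transcripts of 4 Arabidopsis thaliana genes of the mTERF family (AT3G46950, AT1G62150, AT1G79220 and AT5G55580) were measured in the psah2 mutant and in the wild type (WT). They were chosen as probes annotated with exactly 1 gene, that gene being one of these 4. Each gene had 1 such probe, so the set holds 4 of the 689 genes that have a 1-gene probe. The genes were chosen by their fitted changes and intensities in psah2 and WT, among 8 mTERF genes with a 1-gene probe. Their intensities, zeros and changes between the groups are therefore given as a description, without a test.

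The data are 12 single-colour arrays of 3439 probes, hybridised with total RNA of 6 psah2 and 6 WT samples. The psah2 plants lack PSI-H2, a small photosystem I subunit, per the labels, and both groups have the Columbia 0 background. The psah2 allele, and the tissue, age and growth of the plants, are not given in the sources used here. Nor do the labels say if replicates are separate plants, so the p-values below rest on a spread among arrays that may be technical.

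Proteins of the mTERF family are built from repeated helical motifs that bind nucleic acids. They are encoded in the nucleus and imported into mitochondria or chloroplasts, where members of the family act in transcription and its termination, in intron splicing and in translation. The family is named after a mitochondrial transcription termination factor of animals, and it is much larger in land plants than in animals. AT5G55580 is mTERF9, a chloroplast protein that supports ribosome assembly and translation in that organelle. The gene tables used here name only mTERF9 among the 4 as a family member, and the other 3 were placed in the family by the choice of the set. AT1G62150 lies on chromosome 1 within a run of related genes. The assembly TAIR10.1 has 8 other listed mTERF genes within 25 gene positions of it, and the nearest, AT1G62120, is 2 positions away. AT1G79220 is also on chromosome 1, AT3G46950 on chromosome 3 and AT5G55580 on chromosome 5, and none of these has a listed mTERF gene within 25 positions. Probes of such related genes may also bind transcripts of close relatives, and this was not tested.

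The arrays of the 2 groups differed in brightness. The median deposited intensity, on a linear scale from 0 to 100, ran from 0.0904 to 0.0995 on psah2 arrays and from 0.304 to 0.379 on WT arrays. Probes listed at 0 made up 20.1% to 22.5% of a psah2 array and 13.0% to 13.7% of a WT array. Consecutive replicates of a group (1 and 2, 3 and 4, 5 and 6) resembled each other most. Their normalized log2 intensities correlated across probes at 0.867 to 0.874 in psah2 and 0.964 to 0.972 in WT, against 0.810 to 0.842 and 0.934 to 0.957 for the other pairs of arrays within psah2 and within WT. Neither PSAH2, the gene named by the mutant, nor its close copy PSAH1 had a probe in the annotation used here, so it gave no check of the labels. Of 13 marker genes of leaf, root and seed, only SBPASE, an enzyme of the Calvin-Benson cycle in green tissue, had a 1-gene probe. It was listed at 0 on 4 psah2 arrays and on all 6 WT arrays, so the tissue could not be checked.

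AT3G46950 was dimmer on every psah2 array than on any WT array. Its deposited intensity was 0.0834 at the lowest, 0.127 at the median and 0.147 at the highest psah2 array, against 0.636, 0.836 and 0.872 at the lowest, median and highest WT array. The mean was 0.122 ± 0.021 in psah2 and 0.777 ± 0.109 in WT (SD, n = 6 each). The WT arrays fell into 2 levels, since replicates 5 and 6 were at 0.636 and 0.638 and replicates 1 to 4 between 0.832 and 0.872. WT replicates 5 and 6 were also the dimmest WT arrays, with median intensities of 0.304 and 0.305 over all probes. After quantile normalization the split was gone, as their log2 values of -1.01 and -1.03 stood near the -0.95 of replicates 1 and 2, and replicates 3 and 4 were higher at -0.58 and -0.67. Fewer cells of a type and less RNA per cell cannot be told apart in such values.

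AT1G62150, the member within the run of related genes on chromosome 1, also did not overlap between the groups. It stood at 0.256, 0.333 and 0.440 at the lowest, median and highest psah2 array, against 0.798, 1.14 and 1.33 in WT. The mean was 0.338 ± 0.070 in psah2 and 1.08 ± 0.21 in WT (SD, n = 6 each). As for AT3G46950, the lowest WT intensities were those of replicates 5 and 6, at 0.798 and 0.869. Unlike for AT3G46950, these arrays stayed apart after quantile normalization. Their log2 values were -0.58 and -0.45, against -0.33 to 0.06 on the other WT arrays. In WT the second array of each consecutive pair was the brighter one in all 3 pairs, and in psah2 in 2 of 3.

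AT1G79220 was the dimmest relative to its WT level. The 6 psah2 arrays, in the order of their replicate numbers, were at 0.0887, 0.0319, 0, 0, 0.0663 and 0.0105. The 6 WT arrays were at 0.875, 0.774, 0.827, 0.716, 0.937 and 0.749. The 2 psah2 arrays listed at 0 are consecutive replicates, 3 and 4, and no WT array was at 0. A value of 0 can be a failed estimate, so no mean is given for psah2. Over the whole array, 498 probes (14.5%) were above 0 on all WT arrays and at 0 on at least 2 psah2 arrays, while 7 had the reverse pattern. In every consecutive pair above 0 of both groups, the odd-numbered replicate was the brighter one for this probe.

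The 1-gene probe of AT5G55580 (mTERF9), the member with a known chloroplast role, went the other way. Its 6 psah2 arrays were at 1.23, 0.994, 1.28, 1.06, 1.67 and 1.09, and its 6 WT arrays at 0.942, 0.946, 0.975, 0.963, 0.9978 and 0.9997. The groups overlapped, because psah2 replicate 2, at 0.9943, lay below WT replicates 5 and 6. The mean was 1.22 ± 0.25 in psah2 and 0.970 ± 0.025 in WT (SD, n = 6 each), a ratio of 1.26. Consecutive WT arrays differed by at most 0.0119 in deposited intensity, whereas consecutive psah2 arrays differed by 0.222 to 0.579. The odd-numbered replicate was brighter in 3 of 3 psah2 pairs and in 1 of 3 WT pairs. After quantile normalization the SD over the 6 arrays was alike, at 0.26 in psah2 and 0.24 in WT on the log2 scale. A probe that lists mTERF9 together with AT1G78930 was lower in psah2, at 0 to 0.0571 against 0.392 to 0.480 in WT. Values given for mTERF9 below, unless said otherwise, are those of its 1-gene probe.

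**Figure D1:**
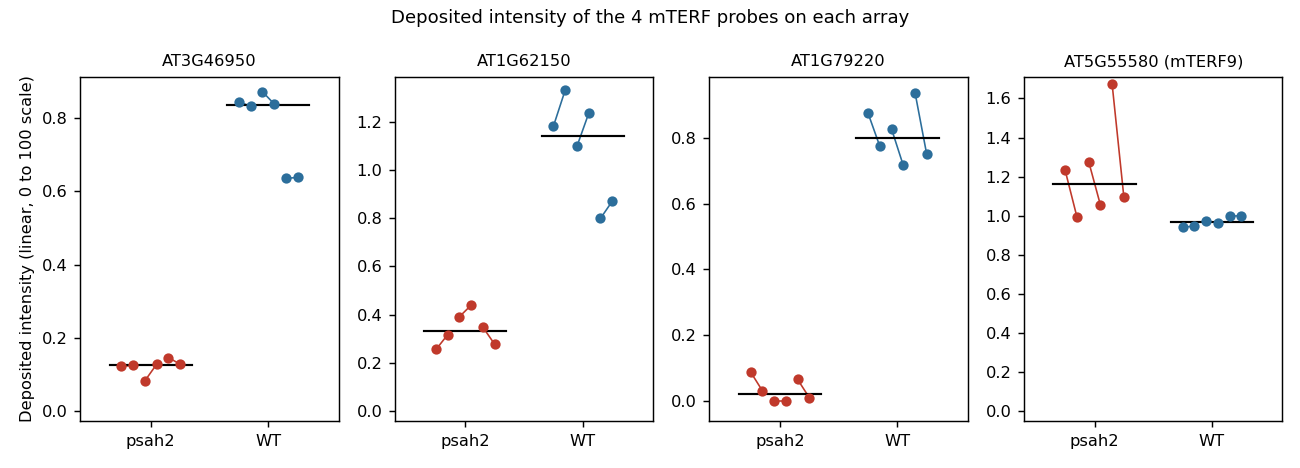
Deposited intensity (linear scale) of each of the 4 mTERF probes on the 6 psah2 and 6 WT arrays. Each point is an array, thin lines join consecutive replicates, and the bar is the group median. AT3G46950, AT1G62150 and AT1G79220 do not overlap between the groups, and psah2 replicate 2 of mTERF9, at 0.9943, lies below the 2 highest WT arrays.

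The lower intensities have to be read against the dimmer psah2 arrays. Of all 3439 probes, 57.3% had every psah2 array below every WT array in deposited intensity, as 3 of the 4 mTERF probes did. Only 5.93% had every psah2 array above every WT array, and mTERF9 was not among them. A share of 57.3% leaves the absence of overlap in the 3 dimmer probes as a common pattern on these arrays.

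The position of a probe within its own array is unchanged by a factor common to all its probes. AT3G46950 was brighter than 48.1% to 59.9% of the probes on psah2 arrays and than 76.7% to 83.2% on WT arrays. For AT1G79220 this share was 11.2% to 49.2% on psah2 arrays and 75.9% to 86.3% on WT arrays. AT1G62150 kept a high position in both groups, at 74.3% to 82.2% in psah2 and 83.2% to 89.5% in WT. mTERF9 stood at 91.4% to 94.7% in psah2 and at 81.2% to 87.3% in WT, so by this measure its groups were separate. AT1G62150 also kept its groups separate, although the nearest arrays were at 82.2% in psah2 and 83.2% in WT. The share of all probes that are separate by this measure was not computed. The separation is therefore not read as particular to these genes.

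**Figure D2:**
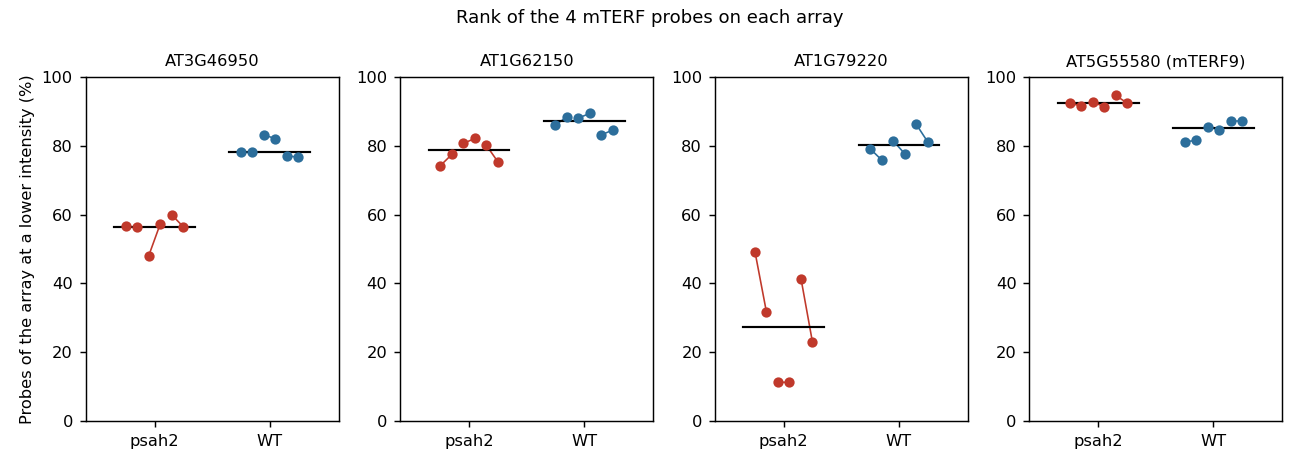
Share of the 3439 probes of an array (%) that had a lower deposited intensity than the probe shown, for the 4 mTERF probes on 6 psah2 and 6 WT arrays. Points are arrays, thin lines join consecutive replicates and bars are medians; values listed at 0 take the middle position of all zeros of their array. AT3G46950, AT1G62150 and AT1G79220 were lower on psah2 arrays and mTERF9 was higher, at 91.4% or more.

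After quantile normalization, which gives all arrays the same distribution of log2 intensities, each change is set against all other probes. AT1G79220 had a fitted log2 change of -2.95 (SE 0.46) in psah2 against WT, over the 4 psah2 arrays above 0. Its normalized log2 intensity ran from -5.42 to -2.61 on those 4 psah2 arrays, with an SD 4.55 times that of WT, against -1.09 to -0.30 on the 6 WT arrays. AT3G46950 had a log2 change of -1.42 (SE 0.13), with means of -2.28 in psah2 and -0.87 in WT. AT1G62150 had a log2 change of -0.81 (SE 0.14), with means of -1.06 in psah2 and -0.25 in WT. mTERF9 had a log2 change of 0.90 (SE 0.15), with means of 0.45 in psah2 and -0.45 in WT (n = 6 each for these 3).

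The normalized values of all 4 probes did not overlap between psah2 and WT. For mTERF9 they ran from 0.19 to 0.92 in psah2 and from -0.74 to -0.20 in WT. Of the 2643 tested probes, 25.4% had every normalized psah2 value below every WT value and 18.8% had every one above. The median log2 change over the 2643 tested probes was -0.26, and 0.68% of them had a change as low as that of AT1G79220 or lower. The same share was 13.4% for AT3G46950 and 31.3% for AT1G62150, and 17.9% had a change as high as that of mTERF9 or higher. These shares leave the arrays at 0 out. With values at 0 set to the lowest value of their array, the log2 change of AT1G79220 was -6.12 and 3.84% of 3439 probes were as low or lower, while the share was 25.01% for AT3G46950 and 35.9% for AT1G62150. For mTERF9, 26.1% were then as high or higher.

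**Figure D3:**
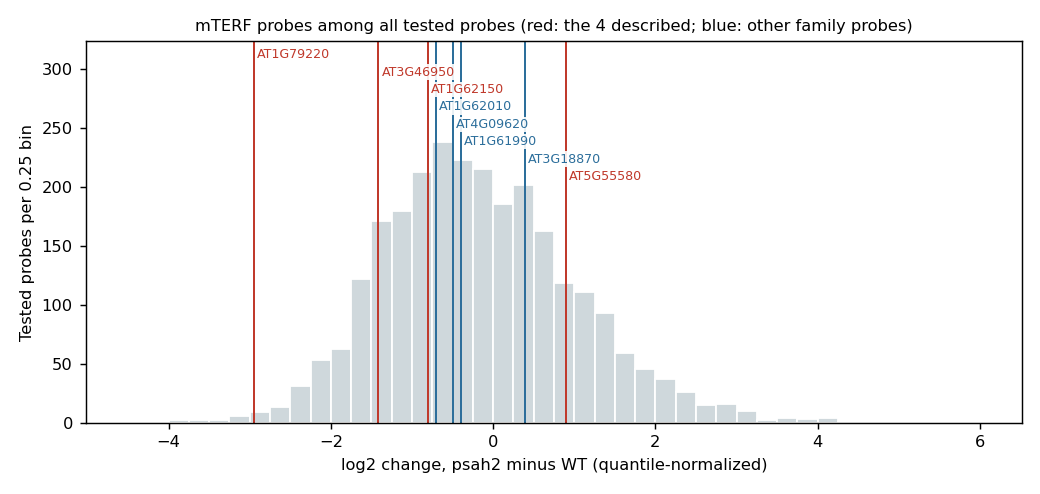
Number of tested probes (vertical axis) by log2 change, psah2 minus WT, after quantile normalization, in bins of 0.25. Red lines mark the 4 mTERF probes described and blue lines the 4 other probes of the family; AT1G79220, at -2.95 over 4 psah2 arrays above 0, is the lowest and mTERF9, at 0.90, the highest of the 8.

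The size of the changes depended on how the arrays were scaled, and the direction of the 4 did not under quantile normalization, cyclic loess, median centring or the values as deposited. Over the values as deposited, where the median of all tested probes was -1.64, AT1G62150 had a log2 change of -1.68 and thus moved with the median probe. AT1G62150 had a log2 change of -0.26 with median-centred arrays, where the median of all tested probes was -0.21. AT3G46950 had -2.67 as deposited and -1.25 with median-centred arrays, below the median of all probes by 1.04 in both. This distance is the same by construction, as median centring shifts all log2 values of an array alike. AT1G79220 had -4.43 as deposited and -3.00 with median-centred arrays. mTERF9 had 0.31 as deposited, which is above the median of all probes by 1.95, and 1.73 with median-centred arrays. Its change was as high or higher in 10.7% of all tested probes in the values as deposited.

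**Figure D4:**
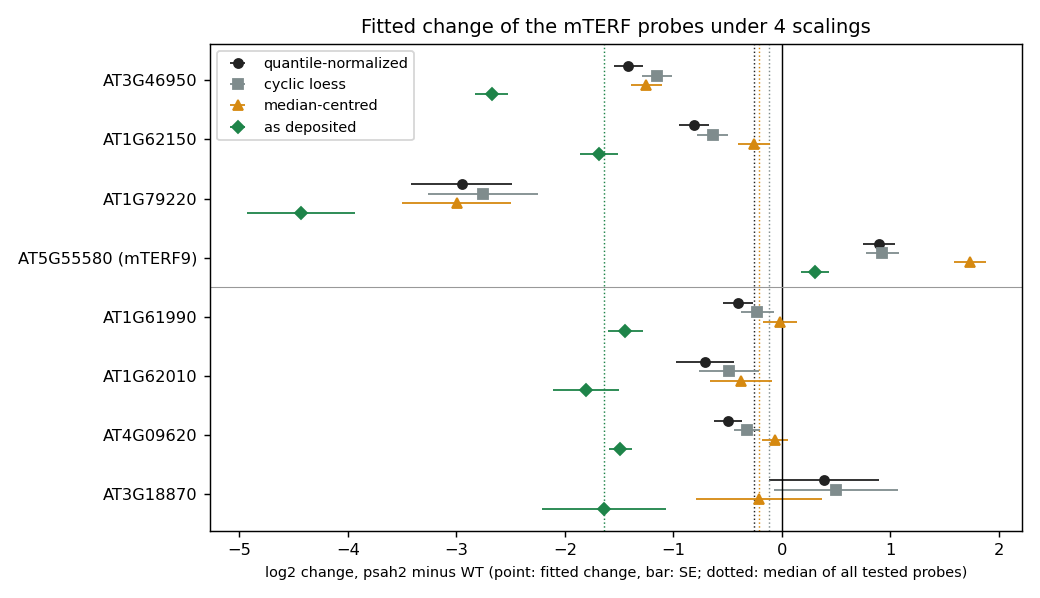
Fitted log2 change, psah2 minus WT, of the 4 mTERF probes (upper rows) and the 4 other probes of the family (lower rows) under 4 ways of scaling the arrays. Points are fitted changes, bars are SE, and dotted lines are the median of all tested probes in the same colour. AT3G46950 and AT1G79220 lie below and mTERF9 above the median of all probes under each scaling. AT1G62150 falls on it as deposited and with median-centred arrays. Those scalings are not independent in this respect, as median centring shifts all log2 values of an array alike.

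Of 31 other listed loci of the family, 4 had a 1-gene probe, and these were tested by limma across all 2643 tested probes with Benjamini-Hochberg adjustment at 0.05. The list was written with earlier results of these data known. The 4 other probes are also those left after the 4 described genes were chosen by their changes in the same contrast. Their log2 changes, from -0.71 to 0.39, were all smaller in size than those of the 4 described. Their count, median and p-values are therefore not independent of that choice. Of the 4 other probes, 3 fell in psah2 and 0 rose, where 36.2% of all tested probes fell and 25.2% rose, or 61.5% together. The median log2 change of the 4 was -0.45, against -0.26 over all tested probes.

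AT4G09620 fell by 0.50 on the log2 scale (SE 0.13, limma, adjusted p = 0.0056, n = 6 each). Its deposited intensity was 0.308 ± 0.040 in psah2 and 0.860 ± 0.039 in WT (SD, n = 6 each). AT1G61990 and AT1G62010 belong to the same run of chromosome 1 genes as AT1G62150. AT1G61990 fell by 0.40 (SE 0.14, limma, adjusted p = 0.0236, n = 6 each), at intensities of 0.298 ± 0.065 in psah2 and 0.794 ± 0.084 in WT. AT1G62010 fell by 0.71 (SE 0.27, limma, adjusted p = 0.0366, n = 6 each), at 0.243 ± 0.103 in psah2 and 0.812 ± 0.266 in WT (SD, n = 6 each). All 3 calls were lost with median-centred arrays (limma, adjusted p = 0.682 for AT4G09620, 0.934 for AT1G61990 and 0.270 for AT1G62010) and with consecutive replicates averaged (0.0931, 0.0941 and 0.165). The calls of AT1G61990 and AT1G62010 were also lost with cyclic loess (limma, adjusted p = 0.225 and 0.154) and with values at 0 set to a floor (0.116 and 0.122), which left 1 of the 4 probes lower under each. In the values as deposited, where most probes are lower in psah2, 4 of 4 fell. In deposited intensity these 3 probes had every psah2 array below every WT array, which held for 57.3% of all probes. The AT1G62010 call was also lost without psah2 replicate 5 or 6 (limma, adjusted p = 0.0704 and 0.0683) or without WT replicate 1, 2 or 5 (0.0792, 0.0738 and 0.0561), and the AT1G61990 call without WT replicate 5 (0.0522).

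AT3G18870 did not pass the test, with a log2 change of 0.39 (SE 0.51, limma, adjusted p = 0.517, n = 6 each). On 5 of the 6 psah2 arrays it was between 0.0148 and 0.0482, below all WT arrays, which ran from 0.129 to 0.169. Both its direction and its call turned with the scaling, to a log2 change of -1.64 as deposited (limma, adjusted p = 0.0175) and of -0.21 with median-centred arrays (adjusted p = 0.769). Replicate 5 of psah2 stood at 0.355, and without it the log2 change was -0.10 (limma, adjusted p = 0.761). The same psah2 array gave mTERF9 its highest intensity, 1.67.

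Partners of these proteins could not be described. None of 29 listed genes of plastid transcription, among them the sigma factors and the proteins associated with the plastid-encoded polymerase, and none of 16 listed genes of organelle RNA processing had a 1-gene probe.

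From array to array within the groups, the 4 genes did not follow a common pattern. Deviations of the normalized log2 intensities from the group means correlated with r between -0.21 and 0.35 over the 6 pairs of the 4 genes (10 arrays for pairs with AT1G79220, otherwise 12). Within the 6 WT arrays alone, r ran more widely, from -0.78 (AT1G62150 and AT1G79220) to 0.75 (AT1G79220 and mTERF9). Within psah2 alone it ran from -0.16 to 0.31, over only 4 arrays for pairs with AT1G79220. The points are arrays of 2 groups whose separate origin is not labelled, so these values, and those that follow, are descriptions. AT3G46950 and AT1G62150, both dim on WT replicates 5 and 6 as deposited, had r = 0.74 over the 6 WT arrays but -0.16 over the 6 psah2 arrays. Over all 8 probes of the family, AT1G79220 and AT1G61990 were the most alike, with r = 0.85 over 10 arrays.

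Among the other 1-gene probes, those whose deviations were most like each of the 4 genes had log2 changes from -1.92 to 1.70 between psah2 and WT. For mTERF9 they were XERICO (AT2G04240), a RING-type zinc finger protein linked to abscisic acid (r = 0.94 over 12 arrays), AT1G24360 (r = 0.87 over 12) and AT3G08000 (r = 0.83 over 10). XERICO had a log2 change of -1.75 between psah2 and WT, opposite to that of mTERF9. For AT3G46950 they were AT1G31220 (r = 0.83), AT5G19540 (r = 0.76) and AT4G22370 (r = 0.75), over 12 arrays each. For AT1G62150 they were AT1G19870, the calmodulin-binding IQ-domain protein IQD32 (r = 0.87 over 11 arrays), AT5G10910 (r = 0.82 over 12) and AT5G53620 (r = 0.81 over 12). For AT1G79220 they were AT3G25840 (r = 0.94), AT5G63390 (r = 0.91) and AT1G27660 (r = 0.91), over 9 arrays each. These are the highest of 504 to 522 probes compared with each gene, for which the median r lay between -0.01 and 0.03.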

How the data were processed

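The authors deposited 1 table of linear intensities per probe and array, which ends at 100 and is never below 0. Its background correction and scaling, the imager and the probe build are not given in the sources used here. Each of its 12 columns is 1 sample. Groups and replicate numbers came from the sample titles.

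Values at 0 were left missing, log2 intensities were quantile-normalized, and probes with at least 4 values per group were fitted with lmFit and eBayes (limma 3.58.1, R 4.3.3), without covariates; 2-sided p-values were adjusted by Benjamini-Hochberg over 2643 probes and called under 0.05. Only the fitting step was tested on simulated data. These had independent noise, no zeros, no brightness difference between groups and no likeness of consecutive replicates. Probes were named from the platform annotation and RefSeq genes of TAIR10.1. Of 3439 probes, 692 had 1 gene (690 matched a locus), 870 several and 1877 none. The number of arrays limits the precision.

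The genes and lists were chosen with earlier results of these data known. Named are the 4 genes, other mTERF loci with a 1-gene probe, and the 3 probes most like each gene. Alternatives were other scalings, a floor at 0, other filters, a replicate block, averaged consecutive replicates and each array left out.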

Additional observations from a re-analysis of the deposited data

Results flagged for a closer look

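Of 16 groups of arrays (8 mTERF probes, psah2 and WT) 1 held an array apart from the others by the gap between neighbours, which chance passes in about 1 of 20 groups. For AT3G46950, psah2 replicate 3 lay below the other psah2 arrays, with a gap of 0.686 of the group's range. Its normalized log2 intensity was -2.72, against a mean of -2.19 over the other 5, and its deposited intensity was 0.0834. It lies farther from WT than the other psah2 arrays, and without it the log2 change of AT3G46950 was -1.30 in place of -1.42.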

How the results depend on the processing

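Over all probes 667 were higher and 958 lower in psah2; the values as deposited gave 251 and 2049, and other alternatives stayed within 1.5 times (620 to 659 and 873 to 926 with 1 array left out). No change of the 4 genes turned direction. As deposited their log2 changes were -1.68 (AT1G62150), -4.43 (AT1G79220), -2.67 (AT3G46950) and 0.31 (mTERF9), since the median probe was then at -1.64. Median centring moved AT1G62150 to -0.26 and mTERF9 to 1.73, and cyclic loess moved AT3G46950 to -1.15. A floor for zeros took AT1G79220 to -6.12, by construction, as the floor is the lowest value of the array. Leaving out 1 array gave -0.89 to -0.73 for AT1G62150, -1.47 to -1.30 for AT3G46950, 0.78 to 0.97 for mTERF9 and -3.06 to -2.89 for AT1G79220, which had no value in the 4 cases that left 3 psah2 values, or where all 12 arrays were required.

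AT1G61990 lost its call on median-centred arrays (-0.016), with cyclic loess (-0.23), with a floor (-0.27) and averaged consecutive replicates (-0.40), and AT1G62010 likewise (-0.38, -0.49, -0.57 and -0.71). AT4G09620 lost it with median-centred arrays (-0.062) and averaged replicates (-0.50). AT3G18870 turned to -1.64 as deposited, where it passed the test (limma, adjusted p = 0.0175), and to -0.21 with median-centred arrays. With 1 array left out, log2 changes ran from -0.45 to -0.31 for AT1G61990, -0.84 to -0.54 for AT1G62010, -0.57 to -0.44 for AT4G09620 and -0.10 to 0.69 for AT3G18870. The cause was not tested.

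A fit with the replicate block gave 654 higher and 938 lower probes, AT1G79220 was at -2.98 and no family call changed. Deviations of normalized log2 intensity from the group means were also correlated between arrays, over 2133 probes. By these deviations all 12 arrays resembled the same-numbered array of the other group most. The r of same-numbered arrays ran from 0.06 to 0.17, over 0.1 for 4 of 6 numbers. This is a hint from the data, not the design.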

Other observations

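Some probes list an mTERF locus together with other genes, and their signal cannot be given to 1 gene. There were 6 of them, 2 of which list one of the 4 genes. A probe that lists AT5G55580 (mTERF9) with AT1G78930 was at 0 to 0.0571 on psah2 arrays and at 0.392 to 0.480 on WT arrays, opposite in direction to the 1-gene mTERF9 probe. A probe that lists AT3G46950 with AT1G62490, AT1G61990 and AT1G61960 was at 0.0613 to 0.269 on psah2 arrays and at 0.449 to 0.676 on WT arrays, the same direction as the 1-gene AT3G46950 probe. These are deposited intensities, in which 57.3% of all probes had every psah2 array below every WT array. The shared direction is therefore a common pattern on these arrays and is not read as support from another probe. A probe that lists AT1G21150, AT5G64950 and AT5G07900 was listed at 0 on all 12 arrays.

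Across the 2133 probes above 0 on every array, 9.38% had the odd-numbered replicate brighter in all 6 consecutive pairs or in none of them. AT1G62010 was one of these, with the odd-numbered array brighter in 3 of 3 psah2 and 3 of 3 WT pairs. AT1G79220 had it in 2 of 3 psah2 pairs, the third pair being at 0, and in 3 of 3 WT pairs. The labels do not say how consecutive replicates are related.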
